A study of Mus musculus with 13 samples.

Results

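Heparan sulfate proteoglycans were followed through 10 mouse genes in B16F10 melanoma cells that had colonised the lung. The genes were taken by symbol from the table of all measured genes: the syndecans Sdc1, Sdc2, Sdc3 and Sdc4, the glypicans Gpc1, Gpc4 and Gpc6, agrin (Agrn), and the enzymes Ext1 and Ndst1. They were 10 of the 22656 genes in the table. Of these, 8 encode core proteins, whereas Ext1 and Ndst1 build the chains that the core proteins carry. Reads were found for all 10 genes, and 9 passed the filter on low values (at least 10 normalised counts as the mean of the 13 libraries); Gpc4 did not.

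B16F10 is an established mouse melanoma line that seeds the lung after injection into a tail vein. All hosts received 100000 cells of the same derivative, labelled B16F10-TR-shApoe, so the label gives a hairpin against the mouse Apoe gene in the tumour cells of both groups. The hosts were knock-in mice with the APOE2 allele (8 libraries) or the APOE3 allele (5 libraries) of the human apolipoprotein E gene, and no group without a knock-in, no other tumour line and no other time were among the samples. On day 15 the lungs were digested with collagenase, and living tumour cells, negative for the leukocyte antigen CD45 and positive for green fluorescent protein, were sorted for RNA. The study text counts 8 APOE2 and 5 APOE3 mice, but the sample labels do not name the mouse behind each library, nor its age, so p-values measure the spread between these libraries.

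Heparan sulfate proteoglycans are proteins at the cell surface or in the matrix that carry long, sulfated sugar chains. Syndecans span the membrane, glypicans are held in it by a lipid anchor, and agrin is secreted into basement membranes. The chains bind growth factors, chemokines, matrix proteins and lipoproteins. Apolipoprotein E binds them through a basic stretch that overlaps its receptor-binding region, and in the liver this binding helps to clear lipoprotein remnants. EXT1 forms, with EXT2, the polymerase that lengthens the chain, and NDST1 replaces acetyl by sulfate groups on its glucosamine units, the first step of chain modification.

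The libraries held 7080308 to 13039989 reads assigned to genes. Values are normalised counts, in which each library's reads were divided by a size factor, and 1 read was worth 0.681 to 1.16 normalised counts. The kit reads 1 fragment near the poly(A) tail of each transcript, so levels of different genes were compared without dividing by length. The melanocyte markers made up 42640.5 to 57958.8 CPM (here, of 1000000 normalised counts) in APOE2 hosts and 34642 to 45325 in APOE3 hosts, and 0 of 10 passed the test by limma. Dct, a melanin enzyme gene that held 35.8% to 63.7% of this sum, was 1.55 times the APOE3 level in APOE2 hosts, with an adjusted p of 0.126 by limma, 0.0467 by edgeR and 0.00796 by DESeq2. Over all 12403 tested genes 6195 were lower in APOE2, and 0.79% passed the test by limma in either direction. Lung epithelial markers summed to 97.7 to 504 CPM in APOE2 and 454 to 2614 in APOE3 hosts. Of these markers, 13 of 13 tested were lower in APOE2 and 7 passed the test, while Cyp2f2 and Epcam were at 0 in at least 7 libraries. Endothelial markers summed to 90.0 to 139 against 133 to 274 CPM (14 of 14 lower, 2 past the test). Fibroblast and smooth muscle markers summed to 14.0 to 54.7 against 32.9 to 233 CPM (7 of 7 lower, 1 past the test; Tagln and Cnn1 at 0 in at least 7 libraries). Leukocyte markers summed to 58.8 to 295 against 258 to 1484 CPM (6 of 7 lower, 1 higher, 2 past the test). The 2 were Lyz2 and Cd74, which alveolar type 2 cells also express, and Lyz2 alone held 36.9% to 96.7% of the sum. The macrophage gene Adgre1, the T-cell genes Cd3e, Cd4 and Cd8a and the B-cell genes Cd79a and Ms4a1 were among those at 0 in at least 7 libraries. RNA of lung cells was thus lower on average in APOE2 hosts, though APOE3 library 1 lay within the APOE2 range for each of these sums. In bulk RNA fewer cells of a type and less RNA per cell cannot be told apart, and the purity of the sort was not tested. Apoe itself lay between 1217 and 2101 normalised counts in APOE2 hosts and between 1193 and 2369 in APOE3 hosts.

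Glypican-1 was the most abundant transcript of the set and Gpc4 the least abundant. Over all 13 libraries Gpc1 averaged 1098 normalised counts, more than 87.9% of the tested genes, and Sdc1 followed at 497. Sdc2 (356), Agrn (353), Ext1 (329) and Ndst1 (303) formed a middle tier. Sdc4 (98.6), Sdc3 (76.0) and Gpc6 (55.9) were lower, and Gpc4 averaged 2.95.

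The order of neighbours was firm at some steps and loose at others. Gpc1 exceeded Sdc1 in 13 of 13 libraries, by 1.13 ± 0.42 on the log2 scale (SD over libraries), and Sdc1 exceeded Sdc2 in 12 of 13. Within the middle tier the order was not resolved: Sdc2 was above Agrn in 7 libraries, Agrn above Ext1 in 6 and Ext1 above Ndst1 in 7. Ndst1 exceeded Sdc4 in 13 of 13 libraries, by 1.59 ± 0.59. Sdc4 was above Sdc3 in 11 libraries, but Sdc3 was above Gpc6 in only 8, with a difference of 0.43 ± 1.14 that was smaller than its spread. Gpc6 exceeded Gpc4 in 13 of 13 libraries.

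**Figure D1:**
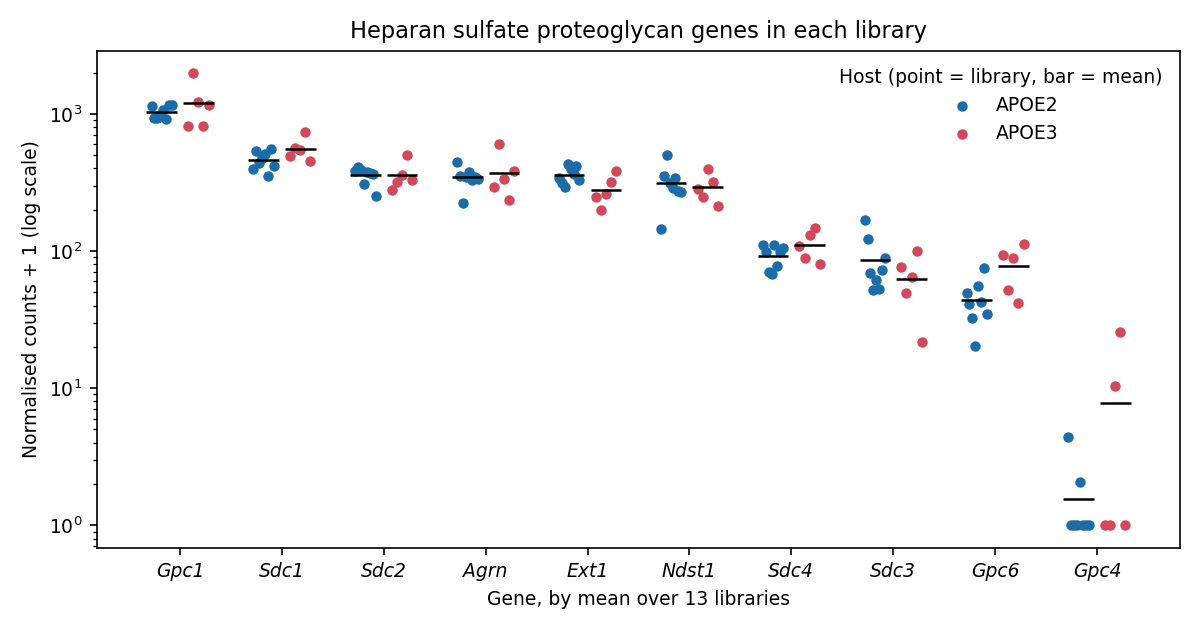
Normalised counts of the 10 genes in each library on a log axis (normalised count + 1), with 8 APOE2 and 5 APOE3 libraries as points and group means as bars. Gpc1 lies highest, with a mean of 1098, Gpc4 lies lowest with reads in 4 of 13 libraries, and the points of the groups overlap for every gene.

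None of the 9 tested genes passed the test of a difference between the hosts. With limma on log2(normalised count + 1) and Benjamini-Hochberg adjustment over all 12403 tested genes, 0 of 9 passed an adjusted p of 0.05, and their adjusted p-values ran from 0.296 to 0.987. Over all tested genes 0.79% passed. At an unadjusted p under 0.05, 2 of the 9 did, Ext1 (higher in APOE2) and Gpc6 (lower in APOE2), beside 14.2% of all tested genes. The count was also 0 with edgeR, where 1.11% of all genes passed, and with DESeq2, where 2.51% passed. The values of the groups overlapped for all 10 genes, while they did not overlap for 0.984% of the tested genes. Of the 9 log2 differences (APOE2 minus APOE3) 4 were positive and 5 negative, and their median was -0.05 beside 3.65e-04 for all tested genes. A p that misses the threshold does not show equal levels, so each difference is given with its 95% interval.

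**Figure D2:**
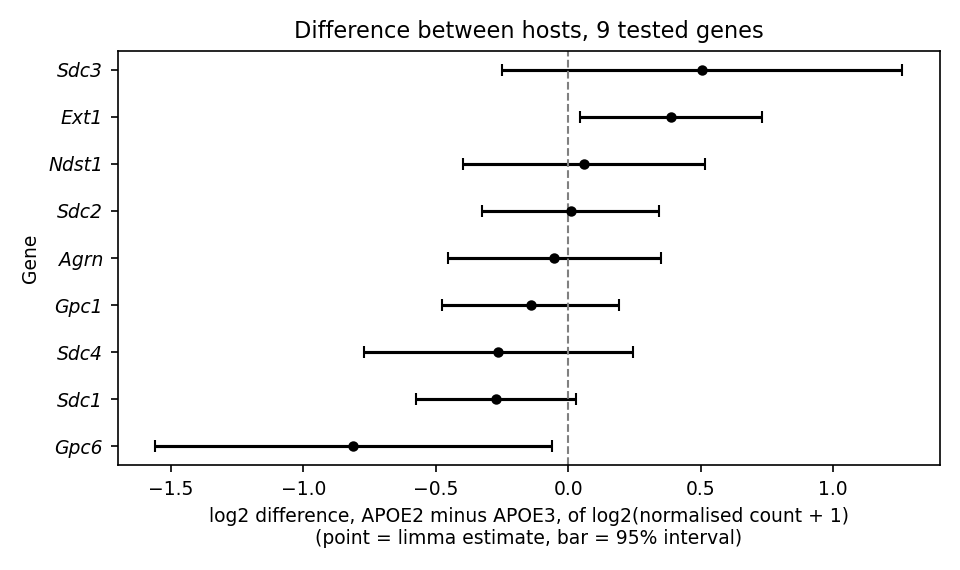
Log2 differences (APOE2 minus APOE3) of the 9 tested genes, as points with 95% intervals from limma. The interval excludes 0 for Ext1 (0.39) and Gpc6 (-0.81) without adjustment, and no gene has an adjusted p under 0.05.

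Among the syndecans, no member passed the test in either direction. Syndecan-1, the epithelial and plasma-cell syndecan (Sdc1, ENSMUSG00000020592, chr12:8771323-8793715 in GRCm38, plus strand), had 352, 456 and 551 normalised counts as the lowest, median and highest of the APOE2 libraries. The APOE3 libraries 1 to 5 had 496, 564, 543, 736 and 449. The highest value was in APOE3 library 4, and 4 of the 8 APOE2 libraries lay below the lowest APOE3 library. The log2 difference was -0.27 (SE 0.15, 95% interval -0.58 to 0.03, adjusted p = 0.404 by limma with Benjamini-Hochberg adjustment), and the interval runs from 0.671 to 1.02 times the APOE3 level. Markers of plasma cells, which carry syndecan-1 as CD138, summed to 94.0 to 161 CPM in APOE2 and 69.7 to 176 in APOE3 hosts. Of these markers, 0 of 3 tested (Mzb1, Xbp1 and Ighm) passed. Jchain and Tnfrsf17 were at 0 in at least 7 libraries, and which genes held most of the sum was not examined. Lung epithelial markers, which stand for the other usual source of syndecan-1, had a median log2 difference of -2.23 (13 of 13 lower). With their mean as a covariate the Sdc1 difference was -0.19, and without APOE3 library 4 it was -0.17. This covariate itself differed between the hosts, so the fit cannot separate it from the host. The part of lung epithelium in the Sdc1 difference was not tested.

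Syndecan-2 (Sdc2, ENSMUSG00000022261, chr15:32920723-33034935, plus strand), which is typical of mesenchymal cells, had 253, 375 and 409 normalised counts (lowest, median, highest) in APOE2 and 279, 316, 360.1, 501 and 329.7 in APOE3 libraries 1 to 5. The groups overlapped over most of their range. Their means were 356 ± 51.1 (SD, n = 8) and 357 ± 85.4 (SD, n = 5), and the log2 difference was 0.01 (95% interval -0.32 to 0.34).

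Syndecan-3 (Sdc3, ENSMUSG00000025743, chr4:130792537-130826319, plus strand), known from nerve and developing muscle, varied most among the syndecans. The APOE2 libraries had a lowest, median and highest value of 51.2, 69.8 and 168 normalised counts. The APOE3 libraries had 75.8, 48.6, 63.5, 99.8 and 20.8. APOE2 libraries 1 and 2 were the highest of all and APOE3 library 5 was the lowest. A log2 difference of 0.51 was estimated, with an interval of -0.25 to 1.26, and it moved to 0.17 without APOE3 library 5. Sdc3 overlaps 2 genes on the opposite strand, Gm12970 and Gm26716, which are not analysed here.

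Syndecan-4 (Sdc4, ENSMUSG00000017009, chr2:164424247-164443887, minus strand), a partner of integrins in focal adhesions, had 66.5, 97.2 and 109.8 normalised counts (lowest, median, highest) in APOE2 and 107, 88.1, 130.1, 147 and 79.8 in APOE3 libraries. APOE3 libraries 3 and 4 lay above all APOE2 libraries and the other APOE3 libraries lay among them. On the log2 scale the difference was -0.26 with an interval of -0.77 to 0.24, and without APOE3 library 4 it was -0.15.

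The RefSeq promoter windows of 3 syndecans are shown because these genes differ in level and share 1 sequence feature that can be read from the letters. Windows of 300 bases (250 before the annotated start and 50 after it, GRCm38.p6) were read for 5 of the 10 genes, and Ndst1 was not among them. Those of Sdc1 (chr12:8771146-8771445, plus strand), Sdc3 (chr4:130792287-130792586, plus strand) and Sdc4 (chr2:164443139-164443438, minus strand) read, 5′ to 3′ on the gene's strand and with each GGGCGG or its reverse complement CCGCCC in capitals, as follows.
Sdc1: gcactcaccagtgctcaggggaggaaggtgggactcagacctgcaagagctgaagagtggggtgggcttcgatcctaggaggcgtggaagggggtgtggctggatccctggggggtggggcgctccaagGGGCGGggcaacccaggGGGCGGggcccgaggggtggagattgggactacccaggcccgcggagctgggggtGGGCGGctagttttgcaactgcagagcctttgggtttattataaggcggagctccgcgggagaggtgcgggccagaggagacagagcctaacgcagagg
Sdc3: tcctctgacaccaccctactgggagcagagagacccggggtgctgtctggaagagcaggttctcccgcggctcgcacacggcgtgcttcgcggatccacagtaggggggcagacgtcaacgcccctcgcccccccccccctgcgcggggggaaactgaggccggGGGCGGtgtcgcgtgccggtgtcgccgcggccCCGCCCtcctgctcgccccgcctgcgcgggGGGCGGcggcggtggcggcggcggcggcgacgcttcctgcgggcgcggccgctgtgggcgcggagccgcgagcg
Sdc4: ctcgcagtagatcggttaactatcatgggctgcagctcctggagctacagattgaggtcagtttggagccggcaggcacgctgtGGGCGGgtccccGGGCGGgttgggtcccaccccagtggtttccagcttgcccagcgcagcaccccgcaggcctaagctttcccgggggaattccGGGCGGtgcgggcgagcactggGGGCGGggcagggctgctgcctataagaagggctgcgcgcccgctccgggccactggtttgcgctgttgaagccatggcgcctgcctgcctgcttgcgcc
GGGCGG, the GC box, was searched on both strands, with overlapping matches counted. It occurred 3 times in the Sdc1 window, 3 times in the Sdc3 window and 4 times in the Sdc4 window. Of 32851 windows of this length, 35.7% held at least 1 match, 10.7% at least 3 and 5.49% at least 4. The G and C content was 66.3% for Sdc1, 77.7% for Sdc3 and 67.7% for Sdc4, beside a median of 52.7% over all windows. The E-box CACGTG, searched in the same way and found in 7.15% of all windows, was not in these 3. CATGTG (14.2% of all windows) was not among their letters either. TATAAA, found in 13.6% of all windows, had no match in them. The Sdc4 window lies inside the GENCODE span of the gene, which starts further upstream.

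Among the glypicans, Gpc6 had the largest difference of the 9 tested genes and Gpc1 the highest level; neither passed the test. Glypican-1 (Gpc1, ENSMUSG00000034220, chr1:92831645-92860779, plus strand), a glypican that many tumours express, had 917, 1014 and 1169 normalised counts as the lowest, median and highest APOE2 values. The APOE3 libraries had 817, 1975, 1223, 818 and 1166. The APOE2 values lay close together, with a coefficient of variation of 10.9%, whereas the APOE3 values spread over 39.4%, with library 2 far above and libraries 1 and 4 below every APOE2 library. On the log2 scale the groups differed by -0.14 (95% interval -0.48 to 0.19), and without APOE3 library 2 it was 0.06. Gpc1 overlaps Ankmy1 on the opposite strand, and Ankmy1 was at 0 in 11 of 13 libraries.

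Glypican-6 (Gpc6, ENSMUSG00000058571, chr14:116925315-117976544, plus strand), a glypican of mesenchymal tissues, was read at a low level. The lowest, median and highest APOE2 values were 19.4, 41.1 and 74.2 normalised counts, and the APOE3 values were 92.7, 50.8, 87.4, 40.5 and 111. All 8 APOE2 libraries lay below the APOE3 median and 4 lay below the lowest APOE3 library. The means were 43.0 ± 16.6 (SD, n = 8) and 76.5 ± 29.7 (SD, n = 5). The log2 difference was -0.81 (SE 0.36, 95% interval -1.56 to -0.06), which is 0.570 of the APOE3 level, with an unadjusted p of 0.0349 and an adjusted p of 0.309 by limma with Benjamini-Hochberg adjustment. The adjusted p was 0.330 with edgeR and 0.241 with DESeq2. Fibroblast and smooth muscle markers were lower in APOE2 hosts too; with their mean level as a covariate in limma the difference was -1.21, and with the epithelial, endothelial or leukocyte markers it was -0.66, -0.94 or -0.74.

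Glypican-4 (Gpc4, ENSMUSG00000031119, chrX:52053021-52165252, minus strand), which in other tissues acts on growth factor signalling and synapse formation, had reads in 4 of 13 libraries. These were 5 reads in APOE2 library 1, 1 read in APOE2 library 5, 9 reads in APOE3 library 3 and 26 reads in APOE3 library 4, or 3.41, 1.06, 9.37 and 24.5 normalised counts. The other 9 libraries were at 0, where a count of 0 allows up to 3 reads. Most of its reads thus came from 2 APOE3 libraries, 1 of which, library 4, also had the highest sums of epithelial (2614 CPM), fibroblast and smooth muscle (233) and leukocyte (1484) markers. Gpc4 was not tested, and the part of lung cells in these reads was not tested either. Counts of reads without molecular identifiers cover counting error only.

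Agrin (Agrn, ENSMUSG00000041936, chr4:156165290-156197488, minus strand), the basement membrane proteoglycan that clusters acetylcholine receptors at the neuromuscular junction, did not pass the test. Its lowest, median and highest APOE2 values were 222, 345 and 443 normalised counts. The APOE3 values were 291, 607, 334, 233 and 382. As for Gpc1, APOE3 library 2 was the highest of all libraries, and the lowest were APOE2 library 3 and APOE3 library 4. Agrn had a log2 difference of -0.05 (95% interval -0.45 to 0.35), and it ran from -0.20 to 0.15 as each library was left out in turn. The promoter window of Agrn is shown because it held the most GC boxes among the 5 genes whose windows were read (chr4:156197439-156197738, minus strand, RefSeq GRCm38.p6; GGGCGG and CCGCCC in capitals).
Agrn: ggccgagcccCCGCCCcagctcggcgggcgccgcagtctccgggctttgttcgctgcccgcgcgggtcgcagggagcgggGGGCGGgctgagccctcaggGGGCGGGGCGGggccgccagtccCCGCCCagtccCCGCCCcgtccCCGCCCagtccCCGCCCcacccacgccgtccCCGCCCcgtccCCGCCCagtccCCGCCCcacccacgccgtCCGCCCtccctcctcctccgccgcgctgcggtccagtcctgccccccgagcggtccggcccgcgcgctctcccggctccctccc
It held 12 matches, a number reached by 0.0213% of the 32851 windows, and its G and C content was 83.3%. A second Agrn window (chr4:156186210-156186509) held 2 matches. A match describes the letters and is not evidence of binding.

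Neither of the 2 chain enzymes passed the test. Exostosin-1 (Ext1, ENSMUSG00000061731, chr15:53064038-53346159, minus strand) had 294, 353 and 428 normalised counts (lowest, median, highest) in APOE2 and 245, 197, 258, 315 and 383 in APOE3 libraries. All 8 APOE2 libraries lay above the APOE3 median and 3 lay above the highest APOE3 library. The means were 359.8 ± 48.9 (SD, n = 8) and 279.7 ± 71.6 (SD, n = 5). The log2 difference was 0.39 (SE 0.17, 95% interval 0.05 to 0.73), or 1.31 times the APOE3 level, with an unadjusted p of 0.0282 and an adjusted p of 0.296 by limma with Benjamini-Hochberg adjustment. With edgeR and DESeq2 the adjusted p was 0.341 and 0.302. Its polymerase partner Ext2 had means of 289 ± 76.9 (SD, n = 8) and 218 ± 35.6 (SD, n = 5) and a log2 difference of 0.38 (interval -0.01 to 0.77, adjusted p = 0.368 by limma with Benjamini-Hochberg adjustment).

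N-deacetylase/N-sulfotransferase 1 (Ndst1, ENSMUSG00000054008) had 144, 301 and 505 normalised counts (lowest, median, highest) in APOE2 and 281, 245, 394, 315 and 213 in APOE3 libraries. Both the lowest and the highest value of all came from APOE2 hosts, libraries 1 and 3, and the APOE3 libraries lay between them. For Ndst1 the log2 difference was 0.06 with an interval of -0.40 to 0.52. Libraries of APOE2 hosts had a ratio of Ext1 to Ndst1 of 1.30 ± 0.53 (SD, n = 8), those of APOE3 hosts 1.03 ± 0.45 (SD, n = 5), with a span from 0.583 to 2.38 within the APOE2 group alone.

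The make-up of the core protein transcripts had close group means and a wider range over the APOE3 libraries. The 8 core proteins summed to 2137 to 2686 normalised counts in APOE2 and 2159 to 3649.6 in APOE3 libraries, with means of 2412 ± 223 (SD, n = 8) and 2739.6 ± 553 (SD, n = 5). Gpc1 held 42.9% ± 3.14 (SD, n = 8) of this sum with APOE2 hosts and 42.8% ± 8.57 (SD, n = 5) with APOE3 hosts, and the 4 syndecans held 41.2% ± 3.39 and 40.8% ± 11.0 (SD, n = 8 and 5). The extreme shares were those of 2 APOE3 libraries. In APOE3 library 2 the Gpc1 share was 54.1% and the syndecan share 27.9%, while in APOE3 library 4 they were 31.5% and 57.1%. These shares are a description; no test was made of them or of the difference in spread.

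**Figure D3:**
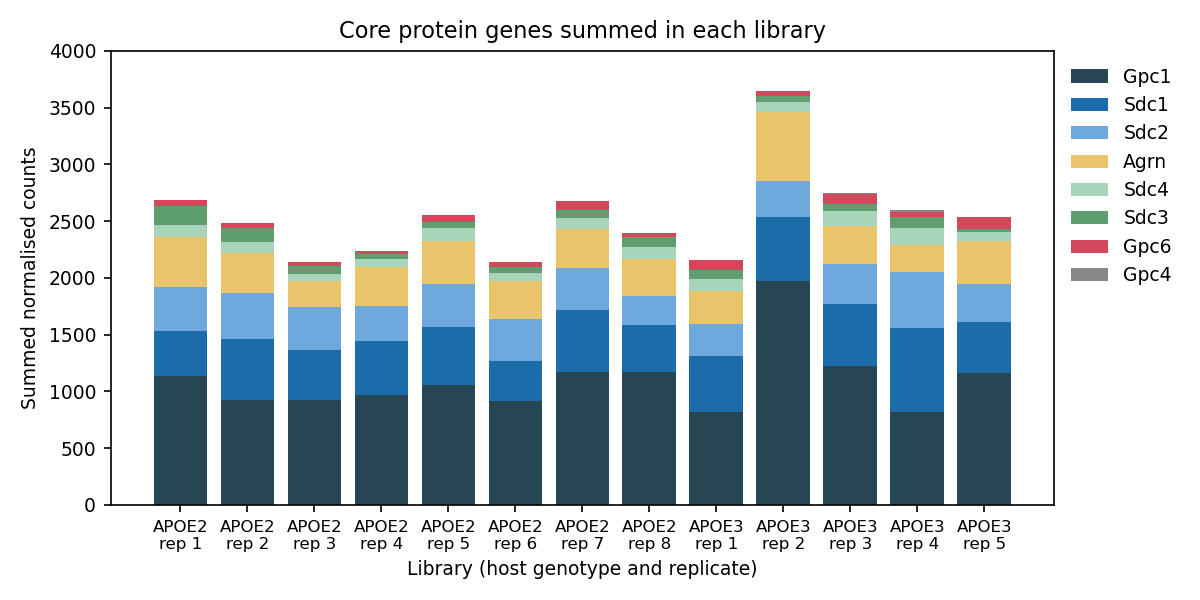
Summed normalised counts of the 8 core protein genes in each library, stacked by gene from a zero baseline. The APOE2 bars end between 2137 and 2686, and APOE3 library 2, the highest bar at 3649.6, is the one with the largest Gpc1 share (54.1%).

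Pairs of genes were compared across the 13 libraries after the mean of each host group had been removed, so that differences between the host means did not enter. Differences in spread between the hosts were not removed. Of 36 pairs among the 9 tested genes, 15 had a positive and 21 a negative Pearson r, and 0 passed after Benjamini-Hochberg adjustment over the 36 permutation p-values; 3 had an unadjusted p under 0.05. The points share a size factor per library, and the 5 APOE3 libraries were too few for a value of their own.

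Gpc1 and Agrn had the highest r, 0.83 (permutation p = 0.00406, adjusted 0.127), with a Spearman rho of 0.66 (permutation p = 0.0282, adjusted 0.339). Without the 2 libraries farthest from the Gpc1 median, APOE3 libraries 2 and 1, r was 0.67, and within the 8 APOE2 libraries it was 0.50. Both genes peaked in APOE3 library 2. It also had the highest level of the melanocyte transcription factor Mitf (15651 normalised counts, beside 5972 to 10336 in the others). Mitf is 1 of the 10 melanocyte markers, and their sum in this library (45325 CPM) lay within the APOE2 range of 42640.5 to 57958.8. Across the 13 libraries, r with the mean of the melanocyte markers was 0.70 for Gpc1 and 0.49 for Agrn, as a description.

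Sdc3 and Sdc4 had r = 0.73 (permutation p = 0.00705, adjusted 0.127) and a Spearman rho of 0.68 (permutation p = 0.0169, adjusted 0.304). Without APOE3 library 5 and APOE2 library 1, r was 0.62, and within the APOE2 libraries it was 0.61. Agrn and Ndst1 had a negative r of -0.63 (permutation p = 0.0185, adjusted 0.222) and rho = -0.72 (permutation p = 0.0101, adjusted 0.304). Without APOE3 library 2 and APOE2 library 3, r was -0.59, and within the APOE2 libraries it was -0.87.

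**Figure D4:**
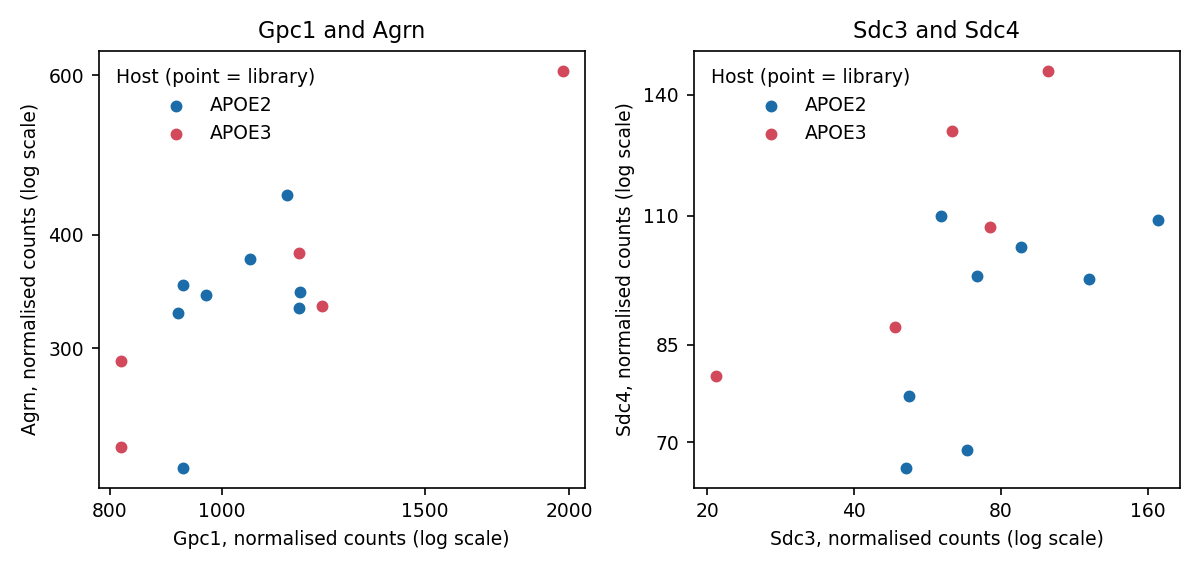
Normalised counts of Gpc1 against Agrn and of Sdc3 against Sdc4, both on log axes, 1 point per library, coloured by host. APOE3 library 2 stands alone at 1975 for Gpc1 and 607 for Agrn, and the Sdc3 and Sdc4 points of both hosts overlap.

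The genes most like the 3 most abundant members were listed by Pearson r over the same 13 centred libraries, among the 9679 genes whose mean reached 50 normalised counts. Nearest to Gpc1 were the flippase gene Atp9a (r = 0.94), the small GTPase gene Rhoc (0.92) and Ndufa12 of respiratory complex I (0.90). Nearest to Sdc1 were Gpr89 (0.83), Clec3b (0.78) and the predicted gene Gm9843 (0.77). Nearest to Sdc2 were Dpagt1, which starts the N-glycan precursor (0.93), the arrestin gene Arrb1 (0.85) and the scaffold gene Dlg3 (0.85). These are the maxima of many comparisons over few libraries and describe these libraries only.

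The other genes of the pathway were read from 9 lists of 112 symbols, of which 105 were in the table and 76 were tested; the other 7 symbols are not analysed here. By limma with Benjamini-Hochberg adjustment 0 of the 76 rose and 1, biglycan (Bgn), fell in APOE2 hosts, beside 0.79% of all tested genes called in either direction. At an unadjusted p under 0.05 there were 4 higher and 9 lower genes, or 17.1%, beside 14.2% of all tested genes. Their median log2 difference was -0.09. DESeq2 called 4 of them and edgeR 1, beside 2.51% and 1.11% of all tested genes.

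The genes that start and lengthen the chain showed no called change. In the linkage list, which builds the sugar bridge to the protein, 0 of 7 passed (median log2 difference -0.16), and the smallest p was that of the xylosyltransferase gene Xylt1, at 47.8 ± 17.2 (SD, n = 8) against 78.7 ± 25.9 (SD, n = 5) normalised counts. B4galt7, which adds the first galactose, had a log2 difference of -0.40 (-0.26 without APOE3 library 5). In the polymerisation list 0 of 4 passed; Extl1, an exostosin-like glycosyltransferase gene, had 456 ± 89.2 (SD, n = 8) against 576 ± 132 (SD, n = 5) normalised counts, a log2 difference of -0.34 (-0.21 without APOE3 library 2), opposite in sign to those of Ext1 and Ext2.

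In the modification list 0 of 5 tested genes passed, with a median log2 difference of 0.05. Hs3st1, the 3-O-sulfotransferase that makes the antithrombin-binding site of heparin, came nearest. Its lowest, median and highest APOE2 values were 108, 144 and 178 normalised counts, and its APOE3 values were 53.7, 81.4, 145, 32.9 and 86.8. Of the APOE3 libraries, 4 lay below all APOE2 libraries and library 3 lay among them. The log2 difference was 1.02 (95% interval 0.44 to 1.59), with an adjusted p of 0.0900 by limma, 0.134 by edgeR and 0.066 by DESeq2. The 6-O-sulfotransferase gene Hs6st1 had a log2 difference of -0.38, which was -0.25 without APOE2 library 6, -0.20 without APOE3 library 2 and -0.57 without APOE3 library 5.

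In the list of editing and breakdown enzymes 0 of 10 passed (3 positive, 7 negative, median -0.34). Heparanase (Hpse), the endoglycosidase that cleaves the chains, had 1144 ± 173 (SD, n = 8) against 943 ± 289 (SD, n = 5) normalised counts, a log2 difference of 0.32 (0.19 without APOE3 library 5). The lysosomal glucosaminidase gene Naglu had a log2 difference of -0.37, and of -0.20 without APOE3 library 2. Among the 10 genes for sugar and sulfate donors 0 passed with limma and 1 with DESeq2. This was Slc35d1, a transporter of UDP-sugars into the endoplasmic reticulum, at 165 ± 31.1 (SD, n = 8) against 254 ± 36.5 (SD, n = 5) normalised counts. Its groups did not overlap, which held for 0.984% of all tested genes. The log2 difference of Slc35d1 was -0.63 (interval -1.01 to -0.25), with adjusted p-values of 0.110 by limma, 0.098 by edgeR and 0.0368 by DESeq2. Papss1, which makes the sulfate donor, had a log2 difference of -0.22, and of -0.11 without APOE3 library 2.

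Among the other heparan sulfate carriers 0 of 7 passed with limma (2 positive, 5 negative, median -0.61) and 2 passed with DESeq2, Nrp1 and Gpc3. Neuropilin-1 (Nrp1), a co-receptor for vascular endothelial growth factor and semaphorins, had 259 ± 51.0 (SD, n = 8) against 393 ± 69.0 (SD, n = 5) normalised counts. Its log2 difference was -0.61, with adjusted p-values of 0.103 by limma, 0.0931 by edgeR and 0.0372 by DESeq2. Serglycin (Srgn), the granule proteoglycan of leukocytes, had 9.47 ± 4.11 (SD, n = 8) against 26.8 ± 9.76 (SD, n = 5). Its groups did not overlap (0.984% of all tested genes did not), and its adjusted p by limma was 0.265. Glypican-3 (Gpc3), named after its values had been seen, had 11.9 to 21.8 normalised counts in APOE2 libraries. In APOE3 libraries 1 to 5 it had 0, 30.5, 101, 183 and 47.4. APOE3 library 1 lay below and the other 4 above every APOE2 library. The adjusted p was 0.684 by limma, 0.0306 by limma without APOE3 library 1, 0.113 by edgeR and 0.0320 by DESeq2. The log2 difference of Gpc3 by limma was -0.83, but -2.07 without APOE3 library 1, -0.41 without library 3 and -0.19 without library 4. With all libraries it was -2.10 by edgeR and -2.11 by DESeq2.

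Chondroitin and dermatan sulfate, the sister chains of heparan sulfate, held the 1 called gene among 13 tested (7 positive, 6 negative, median 0.04). Biglycan, a small matrix proteoglycan of connective tissue, had 6.77, 15.9 and 42.1 normalised counts (lowest, median, highest) in APOE2, and its lowest and highest APOE3 values were 48.5 and 202. The groups did not overlap, as for 0.984% of all tested genes. The log2 difference was -2.45 (interval -3.46 to -1.45), with an adjusted p of 0.0202 by limma and 0.013 by edgeR. The call was lost without APOE2 library 2 (adjusted p = 0.0568 by limma), without APOE3 library 3 (0.0582) and without APOE3 library 4 (0.0688). It was also lost with each marker level as a covariate, where the Bgn difference was -2.45 (epithelial), -0.68 (endothelial), -1.65 (fibroblast) and -2.20 (leukocyte). In these fits only 0, 0, 1 and 0 of all tested genes passed, in that order, so the loss is not particular to Bgn. Its companion decorin (Dcn), which is also in the fibroblast marker list, had a log2 difference of -1.31, with 753 normalised counts in APOE3 library 4; without that library the difference was -0.59.

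Among the partners and sheddases of the core proteins 0 of 10 passed the test; 7 differences were positive and their median was 0.20. Syntenin (Sdcbp), the adaptor that binds the tails of syndecans, had 10858 ± 1269 (SD, n = 8) against 8821 ± 1236 (SD, n = 5) normalised counts and an adjusted p of 0.223 by limma; it overlaps Nsmaf on the opposite strand. The membrane metalloproteinase gene Mmp14, whose product can shed syndecan-1, had 1383 ± 226 (SD, n = 8) against 1072 ± 293 (SD, n = 5), a log2 difference of 0.40 (0.26 without APOE3 library 5). Of 10 tested ligands and receptors that bind heparan sulfate 9 had negative differences (median -0.46) and 0 passed. The chemokine gene Cxcl12 had a log2 difference of -1.73 by limma, -1.18 by edgeR and -1.19 by DESeq2, with APOE2 libraries 3 and 8 at 0 and 1.83 normalised counts. The growth factor receptor gene Fgfr2 had -1.77 by limma, -1.19 by edgeR and -1.21 by DESeq2, with APOE2 libraries 5 and 3 at 0 and 0.919; Fgfr2 overlaps Ctbp2 on the same strand.

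**Figure D5:**
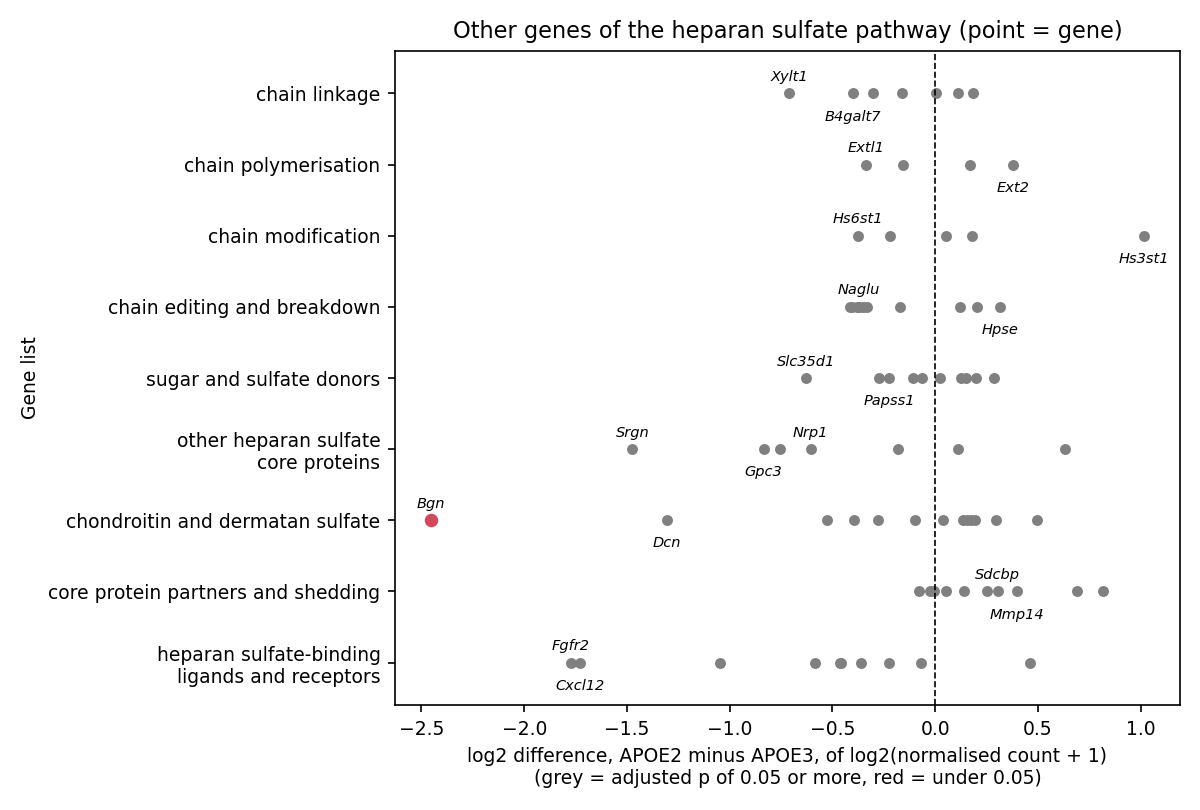
Log2 differences (APOE2 minus APOE3) of the 76 tested genes in the 9 pathway lists, 1 point per gene, with the 0 line dashed. Bgn, at -2.45, is the 1 gene with an adjusted p under 0.05, and the ligand and receptor list has 9 of 10 points to the left of 0.

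Levels of lung cell RNA were lower on average in APOE2 hosts, so each tested gene was also fitted with the mean level of 1 marker list as a covariate in limma. Because such a covariate differs between the hosts, these fits cannot separate it from the host. Under the epithelial, endothelial, fibroblast or leukocyte covariate 0 of the 9 members passed, and over all 12403 genes 0, 0, 1 and 0 did, with 812, 653, 987 and 1014 at an unadjusted p under 0.05 by limma. The difference of Ext1 was 0.58, 0.66, 0.59 and 0.44 in that order, and that of Sdc3 0.99, 0.19, 0.59 and 0.95. That of Sdc1 was -0.19, -0.13, -0.19 and -0.23, and that of Gpc6 stayed negative under all 4.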

How the data were processed

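Gene expression was measured by 3′ RNA sequencing (QuantSeq forward kit, per the labels) of tumour cells sorted from the lungs of 8 APOE2 and 5 APOE3 mice. The submitters' processing notes name STAR 2.6.0, featureCounts, DESeq2 1.28.1 and the mm10 build; the annotation and the strand setting are not given in the sources used here. The values deposited by the authors are a signal, namely gene counts divided by 1 size factor per library. They were whole multiples of the value of 1 read in every library (100% of values, within 0.01 of a whole number), so whole reads were recovered for edgeR 4.0.16 (quasi-likelihood test) and DESeq2 1.42.0, run as alternatives. Of 22656 gene IDs 22649 matched a symbol in GENCODE M21 and 7 did not.

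Genes with a mean of at least 10 (12403) were tested with limma 3.58.1 (trended variance) on log2(value + 1), with Benjamini-Hochberg adjustment over all of them and a threshold of 0.05; fold changes are differences of group means on that scale. For low genes the pseudocount shrinks them, while libraries at or near 0 pull the mean of logs down, so they can differ from the folds of edgeR and DESeq2 in either direction. Groups come from the sample titles. Correlations used 100000 permutations. Alternatives changed the pseudocount, scaling, filter, variance model, tool, threshold and covariates, left out each library, or added a replicate block. The scripts were tested on simulated data. All members were named, with each pathway gene that passed, the 2 smallest p-values of each list, and the 3 genes most like each of the 3 most abundant members. The members, lists and tests were chosen with earlier results of these data known.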

Additional observations from a re-analysis of the deposited data

Results flagged for a closer look

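In 60 checks within a host group, 5 values stood apart, beside 3 expected if chance picks about 1 in 20, and they came from 3 libraries. Each check took the gap of the highest or lowest library to its neighbour over the range of the group. The members and the named pathway genes were among those checked. Gpc4 was at 3.41 normalised counts in APOE2 library 1, where the other 7 libraries lay between 0 and 1.06. In APOE3 library 2, the library with the highest Gpc1 and Agrn values, the heparan sulfate breakdown gene Naglu was at 1798 normalised counts (the others 913 to 1075), the sulfate donor gene Papss1 at 829 (512 to 574), and the syndecan adaptor gene Sdcbp at 6669.8, below the others (9021 to 9794). Decorin (Dcn) was at 753 normalised counts in APOE3 library 4, where the others lay between 26.3 and 136.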

How the results depend on the processing

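The count of tested members past an adjusted p of 0.05 was 0 under every alternative run. The count of correlated pairs was 0 in the main run and with equal library totals, and it was not taken under the other settings. The 1 called pathway gene became 0 with no filter, with limma without its trend, with each of the 4 marker covariates and at a threshold of 0.01; it became 2 at a threshold of 0.1 and 4 with DESeq2, and ran from 0 to 2 as each library was left out. All genes called, 98, became 9 with no filter, 39 with replicates 1 to 5 of each group, 0 with limma without its trend (1599 at an unadjusted p under 0.05), 311 with DESeq2, 0, 0, 1 and 0 with the epithelial, endothelial, fibroblast and leukocyte covariates, 204 at a threshold of 0.1 and 9 at 0.01, and ran from 9 to 228 as each library was left out. The cause was not tested.

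Same-numbered libraries did not deviate together (r from -0.063 to 0.014 over 5 pairs, and 0 of 5 APOE3 libraries were nearest to their own number), so no pairing by number was seen in these values. Whether same-numbered libraries were handled together cannot be read from this. With a replicate block 43 genes were called, with 0 members and 0 pathway genes among them, and Bgn had an adjusted p of 0.0523 (limma).

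Differences of members near 0 changed sign. Sdc2 was -0.031 with equal library totals, -0.0058 with DESeq2 and -0.11 with the leukocyte covariate; Sdc4 was 0.0032 with the epithelial and Gpc1 0.093 with the endothelial covariate. Agrn was 0.10 with array weights and 0.18, 0.13 and 0.14 with the epithelial, endothelial and leukocyte covariates. Ndst1 was -0.13 with array weights and -0.40, -0.089, -0.090 and -0.39 with the epithelial, endothelial, fibroblast and leukocyte covariates. Leaving out libraries gave ranges of -0.072 to 0.14 for Sdc2, -0.26 to 0.057 for Gpc1, -0.20 to 0.15 for Agrn and -0.050 to 0.21 for Ndst1, against -0.35 to -0.17 for Sdc1, 0.17 to 0.72 for Sdc3, -0.37 to -0.15 for Sdc4, 0.27 to 0.51 for Ext1 and -1.01 to -0.65 for Gpc6, with adjusted p-values by limma of 0.144 to 0.501 for Ext1 and 0.244 to 0.435 for Gpc6. Among pathway genes, the epithelial covariate gave 0.14 for B4galt7, -0.048 for Hpse, 0.54 for Dcn, 0.26 for Cxcl12, 0.75 for Fgfr2 and 1.51 for Gpc3. The endothelial covariate gave -0.15 for Ext2, -0.35 for Hpse, 1.07 for Dcn and 2.78 for Gpc3, the fibroblast covariate 0.89 for Dcn and 0.92 for Gpc3, and the leukocyte covariate 0.062 for Hs6st1. Dcn is itself averaged into the fibroblast covariate, so its fit there is in part a fit on itself. At these depths Gpc4, at 0 in 9 libraries, could not be compared.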

Other observations

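Several enzymes of the pathway come as families, and in these libraries 1 or 2 relatives held most of the reads. Of the N-sulfotransferase genes, Ndst1 averaged 303 normalised counts over the 13 libraries and Ndst2 189, whereas Ndst3 (3.83) and Ndst4 (0.972) stayed below the filter. Among the 3-O-sulfotransferase genes Hs3st1 averaged 121, and Hs3st3a1, Hs3st3b1, Hs3st4, Hs3st5 and Hs3st6 averaged at most 1.33. Of the extracellular 6-O-endosulfatases, which trim sulfate from finished chains, Sulf2 averaged 295 and Sulf1 4.25. Among the other carriers, Cd44, a hyaluronan receptor that carries heparan sulfate in some splice forms, averaged 5381, more than the 10 members together (3170 on average).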
